A study of Mus musculus with 20 samples.

Results

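The genes described here are 42 genes of the mitotic cell cycle, found by symbol among the 16003 genes of a single-cell RNA-seq count table of the mouse spinal cord, and all 42 were detected. They comprise 25 genes of mitosis and its checkpoints (Mki67, Top2a, Birc5, Ccna2, Ccnb1, Ccnb2, Cdk1, Cdc20, Pbk, Hmmr, Cdca3, Cdca8, Ube2c, Tpx2, Nusap1, Cenpa, Cenpe, Cenpf, Aurka, Aurkb, Bub1, Bub1b, Plk1, Kif11 and Kif23), 15 genes of DNA replication and its nucleotide supply (Mcm2 to Mcm7, Pcna, Tyms, Rrm1, Rrm2, Tk1, Gins2, 2810417H13Rik, Ccne1 and Ccne2), and 2 genes that dividing cells carry at high levels but many other cells also express (Stmn1 and H2afz). The unique molecular identifiers (UMIs, each standing for 1 captured RNA molecule) of these genes were summed per cell cluster and library, and a cell was counted as carrying the programme when it held at least 3 of their UMIs. The table held 21016 cells in 6 libraries. Female C57BL/6J mice of 8 to 10 weeks received a laminectomy alone (sham) or a contusion of the thoracic cord and were studied at 7 or 28 days post-injury (dpi). They ate vehicle chow or chow with PLX5622, an inhibitor of the receptor CSF1R that depletes microglia, at 1200 ppm from 2 weeks before surgery until the cord was taken. Each library pooled 3 to 4 mice, with 1 sham library for each diet, for which the labels give no time, so that every condition was 1 library and no test between conditions was possible. Intervals in the text are 95% intervals that cover counting error only, and every difference between libraries is a difference between 2 pools of mice.

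Libraries held 1795 cells (sham vehicle), 7439 (7 dpi vehicle), 9846 (28 dpi vehicle), 492 (sham PLX5622), 504 (7 dpi PLX5622) and 940 (28 dpi PLX5622), with 2606149 to 35694246 UMIs in all and medians of 2268.5 to 5127 UMIs per cell. Of the cells, 716 had more than 3000 detected genes, and 44 barcodes occurred in more than 1 library. Cell clusters are those the authors deposited by number, and the names given to them here ("-like") rest on marker genes. Cluster 8 had no cell type name here, because it was made up of cells whose highest genes were those of division. Levels are UMIs of a gene per 1000000 UMIs (CPM) of the library or cluster named. The counts are not divided by gene length, so levels of different genes are not compared.

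A cell that divides passes through a gap phase, DNA synthesis, a further gap and mitosis. Cyclin E (Ccne1, Ccne2) drives entry into DNA synthesis, where the MCM helicase opens the helix, PCNA clamps the polymerase to it, GINS activates the helicase, and thymidylate synthase, ribonucleotide reductase and thymidine kinase supply nucleotides. Cyclins A and B with CDK1 drive mitosis, kinesins, Aurora kinases, Tpx2 and Nusap1 build the spindle, centromere proteins tether chromosomes to it, the Bub kinases hold the checkpoint, and the ubiquitin ligase APC/C, with Cdc20 and Ube2c, ends it. Microglia, astrocytes, endothelial cells and oligodendrocyte progenitors of the adult cord can divide after injury, whereas mature neutrophils do not.

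The promoters of such genes are known for CCAAT boxes (bound by NF-Y), CHR elements (TTTGAA) and E2F sites (TTTGGCGC, TTTCGCGC or GGCGGGAA). Of the 42 genes, 34 had a promoter sequence in RefSeq (GRCm38.p6), each covering 250 bases before and 50 after the start. On either strand, CCAAT was found in 19 of 21 mitosis promoters and in 9 of 12 replication promoters, against 37.9% of 27025 promoters of all genes. The letters TTTGAA were in 16 of 21 mitosis promoters and 1 of 12 replication promoters, against 18.1% of all. The E2F letters TTTGGCGC or TTTCGCGC were in 4 of 12 replication promoters and 1 of 21 mitosis promoters (Cdk1), against 0.833% of all, and GGCGGGAA was in 3 of 12 and 0 of 21, against 2.24%. These are matches of letters, and binding was not measured. Shown are the 200 bases before the start of Top2a and Ube2c, on which the results turn, of Nusap1, which is described beside Ube2c, and of Mcm6 as a replication gene. Capitals mark the CCAAT, the TTTGAA and both 8-base E2F spellings or their reverse complements, 5′ to 3′ on the gene's strand. The windows lie at chr11:99024190-99024389 (Top2a, minus strand), for Ube2c at chr2:164769729-164769928 (plus), for Nusap1 at chr2:119618098-119618297 (plus) and for Mcm6 at chr1:128359706-128359905 (minus).
Top2a: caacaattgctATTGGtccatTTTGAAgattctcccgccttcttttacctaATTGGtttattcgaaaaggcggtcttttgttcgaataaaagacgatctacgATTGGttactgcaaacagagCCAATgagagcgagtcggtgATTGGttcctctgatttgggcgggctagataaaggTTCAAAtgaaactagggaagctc
Ube2c: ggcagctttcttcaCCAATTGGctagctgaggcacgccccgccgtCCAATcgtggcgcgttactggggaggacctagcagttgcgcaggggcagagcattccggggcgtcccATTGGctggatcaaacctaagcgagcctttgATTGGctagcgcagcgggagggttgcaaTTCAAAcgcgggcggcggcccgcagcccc
Nusap1: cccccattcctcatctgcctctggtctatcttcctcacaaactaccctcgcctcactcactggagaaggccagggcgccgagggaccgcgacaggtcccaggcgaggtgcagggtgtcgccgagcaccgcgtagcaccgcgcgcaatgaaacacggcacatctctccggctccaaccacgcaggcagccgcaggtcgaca
Mcm6: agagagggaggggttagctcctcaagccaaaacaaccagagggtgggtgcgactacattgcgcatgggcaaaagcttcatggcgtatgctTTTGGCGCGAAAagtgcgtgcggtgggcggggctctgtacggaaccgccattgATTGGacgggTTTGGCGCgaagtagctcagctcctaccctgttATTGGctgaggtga
Top2a carried 5 CCAAT and 2 TTTGAA matches and Ube2c 5 CCAAT matches, 2 of them overlapping, and 1 TTTGAA match. Mcm6 carried both E2F spellings, overlapping in 1 run, a further separate TTTGGCGC, 2 CCAAT matches and no TTTGAA. None of these letters occurred in the 200 bases shown for Nusap1.

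Across all cells the 42 genes held 113206 UMIs. H2afz, a histone variant of chromatin in most cells, held 44.2% of them and was found in 66.0% of cells, and Stmn1, a microtubule regulator, held 9.40%. The other genes of most UMIs were Pcna (5004 UMIs), Top2a (4078), Mki67 (3171), 2810417H13Rik (2760; also known as Pclaf, a PCNA-binding factor), Ube2c (2712), Mcm3 (2332), Cenpf (2167) and Birc5 (2070). Ccne1 had the fewest, with 173. No gene was too sparse to describe over the whole table, but the rarer ones fell below 30 UMIs in single pairs of libraries and were then left out of comparisons.

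Of the 42 genes, 39 were at their highest in cluster 8, which was 617 cells or 2.94% of all (2.71 to 3.17%). Cluster 8 was defined from these same counts, so this is a description of what it is and not a test. All 6 markers of dividing cells that are not among the 42 (Hmgb2, Tuba1b, H2afx, Cks2, Smc2 and Smc4) were also highest there, which is a description for the same reason. Mki67, the proliferation antigen of dividing nuclei, stood at 591 CPM in cluster 8 and 8.30 CPM in all other cells. Top2a, which untangles DNA before chromosomes part, stood at 789 against 9.04 CPM, and Birc5, a subunit of the chromosomal passenger complex, at 400.3 against 4.61 CPM. 2810417H13Rik stood at 541 against 5.75 CPM. Cluster 8 held 74.3% of the UMIs of the mitosis genes, 38.2% of those of the replication genes and 43.5% of those of all 42. Replication genes were also found outside cluster 8: Pcna, the sliding clamp, stood at 53.0 CPM there, with 18.5% of its UMIs inside the cluster. Mcm3, a helicase subunit, stood at 24.1 CPM outside it. How much each gene lowered the replication share was not computed.

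The other 3 were Ube2c, Nusap1 and Mcm4. Ube2c, the ubiquitin-conjugating enzyme of the APC/C, was highest in erythroid-like cells (1021 CPM, against 402 in cluster 8), as was Nusap1, a spindle microtubule protein (501 against 232 CPM). Mcm4 was highest in ependymal-like cells (39.4 against 36.9 CPM). H2afz (2779.5 CPM in cluster 8) and Stmn1 (1336 CPM) were highest in cluster 8 but were next highest in the oligodendrocyte lineage-like cells, at 1152 and 573 CPM. The heat map of genes by cluster shows cluster 8 as 1 bright column, with the erythroid-like and oligodendrocyte lineage-like columns next brightest in the mitosis rows.

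**Figure D1:**
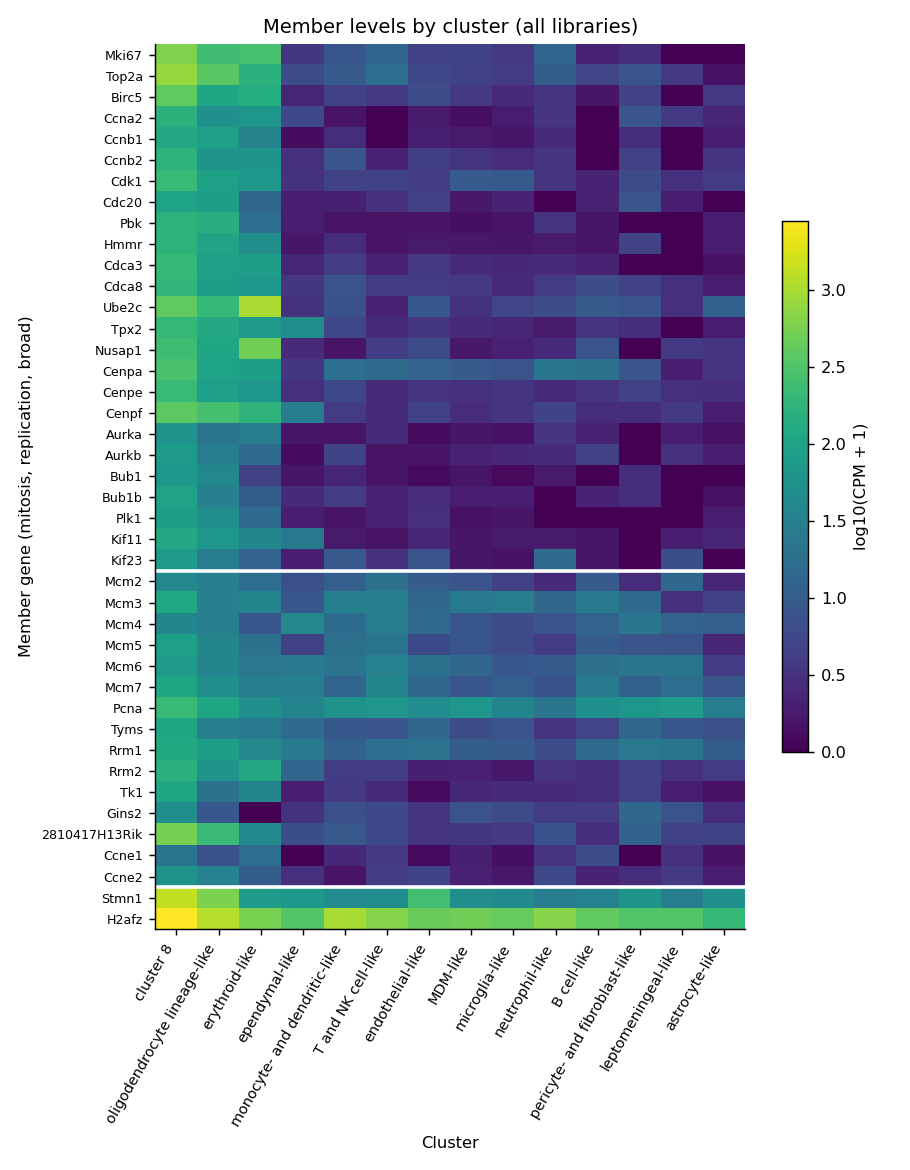
Heat map of the level of each of the 42 genes (rows) in each of the 14 clusters (columns), coloured by log10 of CPM + 1. Top2a reads 789 CPM in cluster 8 and Ube2c 1021 CPM in the erythroid-like column.

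Counted by cell, the shares carrying at least 3 UMIs of the 42 genes depended on depth and on H2afz, and the 25 mitosis genes gave a sharper picture. In cluster 8, 97.7% of cells (96.2 to 98.8%) had at least 3 mitosis UMIs, at a median of 6090 UMIs per cell. The shares were 40.5% in erythroid-like cells (34.5 to 46.7%; 262 cells, median 1017.5 UMIs) and 21.2% in oligodendrocyte lineage-like cells (16.3 to 26.7%; 255 cells, median 2301 UMIs). Ependymal-like cells had 7.50% (5.67 to 9.69%; median 2675 UMIs). Neutrophil-like cells had 1.13% (0.416 to 2.44%; median 1563 UMIs). These were 6 cells with a median of 4.5 distinct mitosis genes, and 66.7% of them had Mki67, so this share is not a background free of dividing cells. The shares were 1.52% or lower in macrophage-like cells of monocyte origin (MDM-like, 1.52% of 6791 cells) and in endothelial-like (1.49% of 1075), T and NK cell-like (1.05% of 764), B cell-like (1.07% of 653), microglia-like (0.385% of 7018) and astrocyte-like cells (0.411% of 974). At an equal depth of 1000 UMIs per cell, which left out 2816 shallower cells, the share was 73.2% in cluster 8, 27.2% in erythroid-like and 14.6% in oligodendrocyte lineage-like cells. At that depth the share was 0.32% of 622 ependymal-like cells and 0.55% of 362 neutrophil-like cells. Both rest on very few cells, so they are not ranked. For all 42 genes at full depth, by contrast, 59.3% of MDM-like cells and 22.4% of both microglia-like and neutrophil-like cells reached 3 UMIs.

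**Figure D2:**
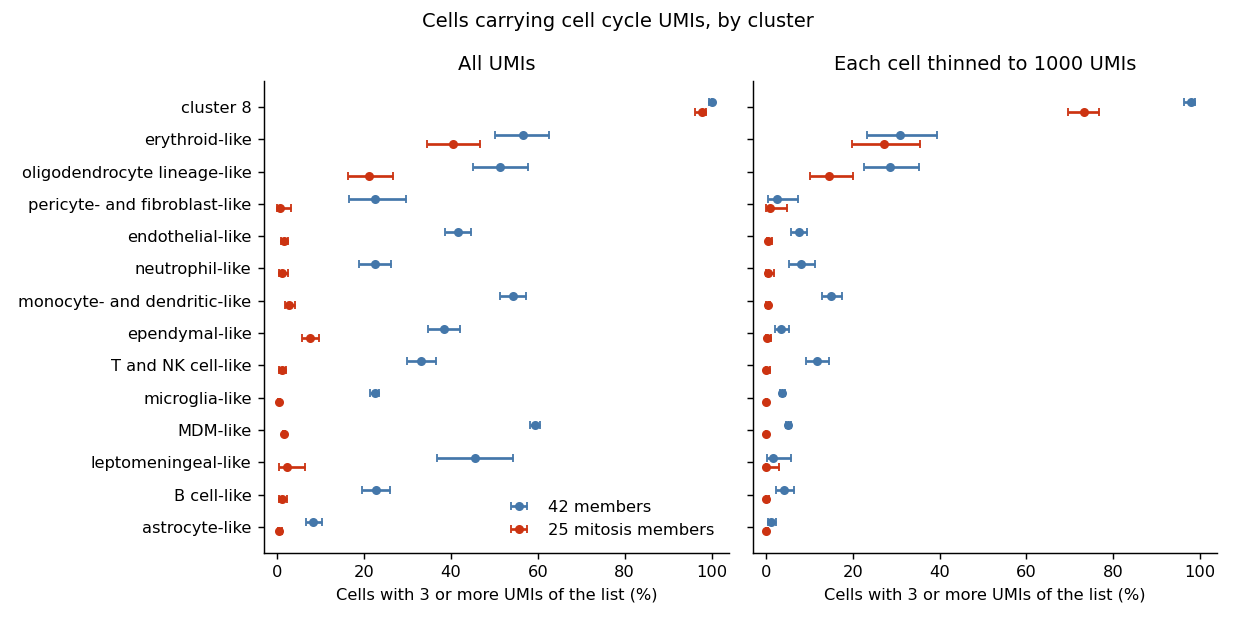
Percent of cells per cluster with at least 3 UMIs of the 42 genes (blue) or the 25 mitosis genes (red), at full depth (left) and thinned to 1000 UMIs per cell (right), with Clopper-Pearson 95% intervals. The mitosis share of cluster 8 is 97.7% at left and 73.2% at right.

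In all, 1021 cells had at least 3 mitosis UMIs, and 418 of them (40.9%) lay outside cluster 8. These were 106 erythroid-like, 103 MDM-like, 54 oligodendrocyte lineage-like, 53 ependymal-like, 30 monocyte- and dendritic-like, 27 microglia-like and 16 endothelial-like cells, with 8 or fewer in each other cluster. What such cells carried differed between clusters. In cluster 8 the median cell had 13 distinct mitosis genes, and 78.1% had Mki67. In the oligodendrocyte lineage-like cells the median was 8.5 genes, 63.0% had Mki67, and Top2a, Cenpf and Mki67 led the UMIs. In the MDM-like and microglia-like cells the median was 3 genes, and 32.0% and 29.6% had Mki67. In erythroid-like cells the median was 2 genes, and Ube2c and Nusap1 alone gave 47.3% of the mitosis UMIs.

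Cluster 8 made up 1.62% of the sham vehicle library (1.08 to 2.31%; 29 cells), 4.13% at 7 dpi (3.69 to 4.60%; 307 cells) and 2.52% at 28 dpi (2.22 to 2.85%; 248 cells). With PLX5622 it made up 1.42% in sham (0.574 to 2.91%; 7 cells), 1.98% at 7 dpi (0.955 to 3.62%; 10 cells) and 1.70% at 28 dpi (0.976 to 2.75%; 16 cells). In vehicle-fed mice the 7 dpi share stood above the sham and the 28 dpi share with no overlap of intervals, and the intervals of the PLX5622 libraries overlapped one another. The 7 dpi PLX5622 interval lay below the 7 dpi vehicle interval, whereas those of the sham and 28 dpi libraries overlapped between diets. A share is relative to all captured cells, whose make-up differed between libraries. A doublet caller marked 13 of the cells at 7 dpi and 22 at 28 dpi in vehicle libraries and none in the other libraries.

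The cells of cluster 8 carried markers of different cell types in different libraries. Lineage lists that are not among the 42 genes were read in 594 cells thinned to 1000 UMIs. In sham vehicle, 65.4% of 26 cells had at least 3 UMIs of monocyte markers and 46.2% of immature neutrophil markers, and 19.2% of MDM markers. At 7 dpi vehicle, 69.0% of 306 cells had MDM markers, 32.7% microglial and 12.7% monocyte markers. At 28 dpi vehicle, 49.1% of 234 cells had MDM and 49.6% microglial markers. For comparison, MDM-like cells reached 91.2% for their own list and endothelial-like cells 28.3%, which is the level the MDM list reaches in a cell type that should lack it, while the microglial list reached 76.1% in microglia-like and 5.52% in endothelial-like cells. The interval of the MDM share of sham cluster 8 (6.55 to 39.3%) included the endothelial-like level, and that of 7 dpi (63.4 to 74.1%) lay above it. The endothelial-like level pools the cells of all libraries and was not read per library, so the level that belongs to sham or to 7 dpi alone is not known. The MDM list was not read in microglia-like cells, nor the microglial list in MDM-like cells. These shares therefore do not tell dividing microglia from dividing MDM-like cells.

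Single genes showed the same order. S100a8, an alarmin of neutrophils, stood at 56680.3 CPM in cluster 8 of sham vehicle, 6534 at 7 dpi and 5047 at 28 dpi. Spp1, which encodes osteopontin, stood at 99.1 CPM in sham, 12077 at 7 dpi and 5612 at 28 dpi. It marks lesion macrophages, but the paper also reports it increased in microglia after injury. P2ry12, a receptor of resident microglia, stood at 22.4, 84.7 and 228 CPM. In PLX5622 libraries the cells were few: MDM markers were found in 0 of 7 sham cells, which allows a share of up to 41.0%, in 5 of 7 at 7 dpi and in 3 of 14 at 28 dpi. S100a8 of the PLX5622 sham came from 1 of 7 cells. Oligodendrocyte markers reached 3 UMIs in 1 of the 594 cells.

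**Figure D3:**
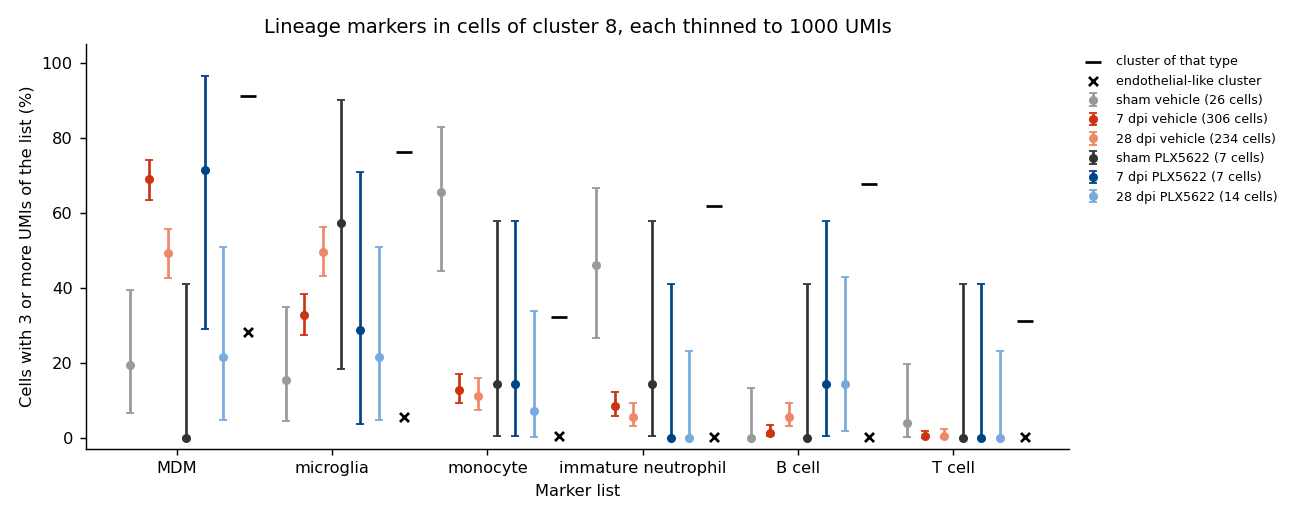
Percent of cluster 8 cells (thinned to 1000 UMIs) with at least 3 UMIs of each of 6 lineage lists, by library, with Clopper-Pearson 95% intervals. The dash marks the cluster of that type and the cross the endothelial-like cluster, both pooled over all libraries. Monocyte markers reach 65.4% in sham vehicle and MDM markers 69.0% at 7 dpi vehicle.

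Within cluster 8 the balance between DNA synthesis and mitosis, by UMIs, stood apart in 1 library and differed less among the other 5. Replication genes gave 26.1% of the combined replication and mitosis UMIs in sham vehicle, 25.7% at 7 dpi, 22.2% at 28 dpi, 21.9% in sham PLX5622 and 20.6% at 7 dpi PLX5622, but 44.0% (40.3 to 47.6%) at 28 dpi PLX5622, from 16 cells. Among the other 5, the intervals of 28 dpi vehicle (21.3 to 23.1%) and 7 dpi PLX5622 (18.1 to 23.4%) lay below that of 7 dpi vehicle (25.0 to 26.3%). Mki67 in cluster 8 stood at 655, 557 and 622 CPM in the vehicle libraries and at 1990.0, 403 and 323 CPM in the PLX5622 libraries, and Top2a at 933, 763 and 804 CPM and at 1338, 539 and 892 CPM. The 7 cells of the PLX5622 sham thus had the highest level of both genes. By cell at 1000 UMIs, 73.2% had at least 3 mitosis UMIs, 30.8% at least 3 replication UMIs, 20.5% both and 16.5% neither. At least 3 replication UMIs were found in 34.6, 29.4 and 30.3% of cells in the vehicle libraries. With PLX5622 they were found in 6 of 7, 1 of 7 and 6 of 14 cells, so by cell the PLX5622 sham stood highest.

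At 28 dpi, genes of cluster 8 were compared between PLX5622 and vehicle. Of 41 genes with at least 30 UMIs in the pair, 5 were at least 2-fold higher with PLX5622 (Mcm6, Mcm7, Pcna, 2810417H13Rik and Ccne2), against 5.86% of all genes, and 9 at least 2-fold lower (Ccnb1, Hmmr, Cdca8, Tpx2, Cenpa, Cenpf, Bub1, Kif23 and Gins2), against 17.3% of all genes. The higher 5 are all replication genes, and of the lower 9 all but Gins2 are mitosis genes. Ccne2 stood at 186 against 45.2 CPM (log2 ratio 2.04, 1.21 to 2.82), Mcm7 at 255 against 85.6 (1.57) and Pcna at 460.5 against 228 (1.02). Cenpa, the histone of the centromere, stood at 68.6 against 308 CPM (-2.17, -3.49 to -1.11), Tpx2 at 78.4 against 206 (-1.39) and Mki67 at 323 against 622 (-0.94), while Top2a, at 892 against 804 (0.15), did not follow. The PLX5622 side rests on 16 cells, and the intervals of Bub1, Kif23 and Gins2, with 3 or fewer UMIs there, included 0.

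At 7 dpi the 10 cluster 8 cells of PLX5622 had 8 of 42 genes at least 2-fold lower than vehicle (Pbk, Mcm2, Mcm4, Rrm1, Rrm2, 2810417H13Rik, Ccne1 and Ccne2), against 11.9% of all genes, and 0 higher, against 5.86%. 2810417H13Rik stood at 260.3 against 564 CPM (-1.12, -1.59 to -0.67). Ccne1 (1 against 52 UMIs; -1.79, -7.12 to 0.76), Mcm2 (2 against 90 UMIs) and Mcm4 (2 against 78 UMIs) were too sparse for their intervals to leave out 0. Between 28 and 7 dpi in vehicle, 0 of 42 genes were 2-fold higher (3.08% of all genes) or lower (2.7%).

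Ube2c and Nusap1 stood apart in erythroid-like cells, which carry hemoglobin genes. In sham vehicle, Ube2c stood at 2384 CPM (338 UMIs) and was found in 65.0% of 120 erythroid-like cells, and in sham PLX5622 at 2715 CPM (59 UMIs) in 94.7% of 19. At 7 dpi vehicle it stood at 115 CPM (30 UMIs; 24.1% of 58 cells) and at 28 dpi vehicle at 495 CPM (42 UMIs; 25.7% of 35). At 7 dpi PLX5622 it stood at 1541 CPM (33 UMIs; 56.0% of 25 cells). At 28 dpi PLX5622 only 5 erythroid-like cells were found, with 5312 CPM (48 UMIs). Nusap1 followed the same order in vehicle, at 988, 65.4 and 200.5 CPM. The vehicle sham level of both thus exceeded those at 7 and 28 dpi.

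Other mitosis genes did not rank so. Cenpf stood at 35.3 CPM in the erythroid-like cells of sham vehicle, 69.2 at 7 dpi and 212 at 28 dpi, and Top2a at 113, 38.5 and 425 CPM. Of 96 erythroid-like cells with at least 3 UMIs of Ube2c and Nusap1 together, 75 had no UMI of Mki67, Top2a or Cenpf. In cluster 8 this was so for 2 of 297 such cells and in the oligodendrocyte lineage-like cells for 0 of 22. Median depth of erythroid-like cells differed too, at 861.5 UMIs in sham vehicle, 4107 at 7 dpi and 2203 at 28 dpi. Erythroid-like cells with at least 3 mitosis UMIs had more hemoglobin RNA (110913 against 36955 CPM of the list) and less of the MDM list (1764 against 20771 CPM) than the other erythroid-like cells. The part of depth and of MDM RNA in the difference was not tested.

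**Figure D4:**
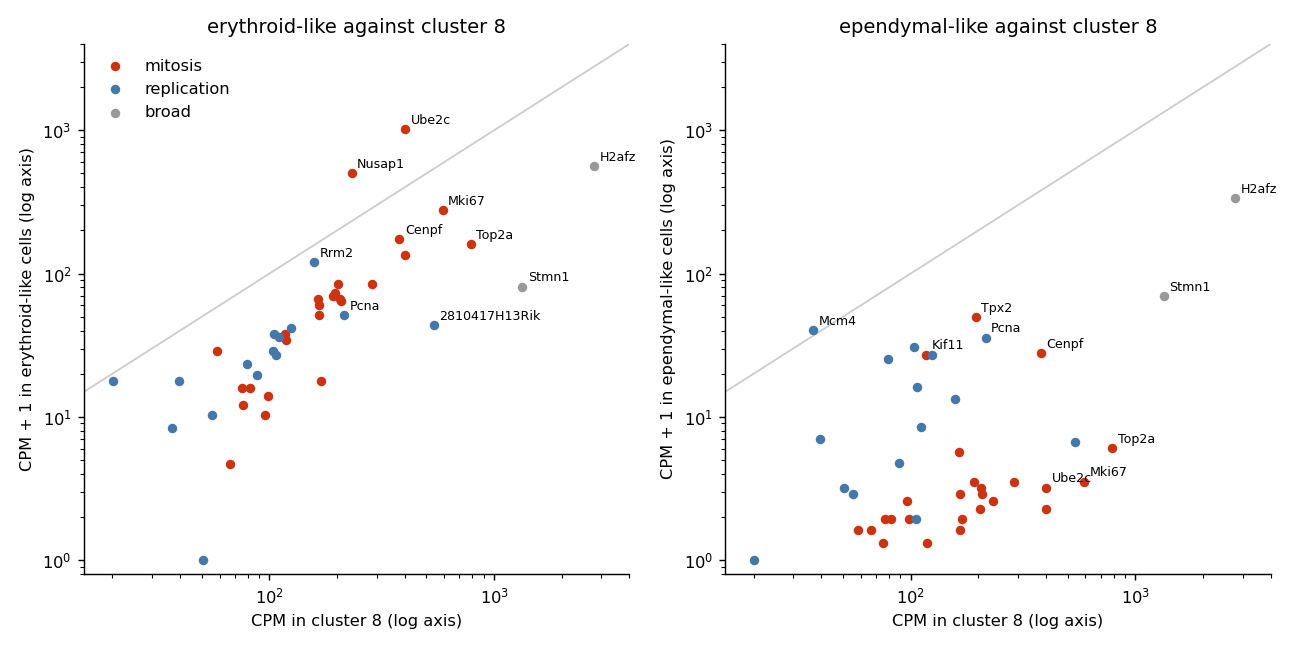
Level of each gene in cluster 8 (x, CPM, log scale) against its level in erythroid-like (left) and ependymal-like cells (right; y, CPM + 1, log scale). Ube2c and Nusap1 lie above the line of equal levels at left, at 1021 and 501 CPM, and Mcm4 at right, at 39.4 CPM.

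In oligodendrocyte lineage-like cells, which include progenitors and mature cells, the mitosis genes summed to 4524 CPM in sham vehicle (22 cells), 3164 at 7 dpi vehicle (107 cells) and 2779 at 28 dpi vehicle (55 cells). With PLX5622 they summed to 0 UMIs in sham, where 4 cells allow up to 233.8 CPM, 1559 CPM at 7 dpi (28 cells) and 1692 CPM at 28 dpi (39 cells). Cells with at least 3 mitosis UMIs numbered 2, 28 and 13 in the vehicle libraries and 0, 7 and 4 in the PLX5622 libraries, in the same order. By cell, the vehicle share was lowest in sham, where the summed level was highest, with 9.09% in sham (1.12 to 29.2%), 26.2% at 7 dpi (18.1 to 35.6%) and 23.6% at 28 dpi (13.2 to 37.0%), and the sham sum rests on 2 cells. Mki67 stood at 641, 308 and 266 CPM in the vehicle libraries and at 0, 20.4 and 107 CPM in the PLX5622 libraries. Top2a stood at 654, 433 and 343 CPM and at 0, 211 and 222 CPM. Cells with at least 3 mitosis UMIs had Pdgfra, a receptor of oligodendrocyte progenitors, at 819 CPM, against 808 CPM in the other cells of the cluster. Their MDM list stood at 6398 against 1399 CPM and their neutrophil list at 4531 against 354 CPM, and the part of those RNAs in the counts was not tested.

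Ependymal-like cells line the central canal. Their mitosis UMIs came mostly from Tpx2 (154 UMIs; 48.5 CPM), Cenpf (85 UMIs) and Kif11 (83 UMIs), and Tpx2 was found in 15.3% of the cells. Mki67 had 5 UMIs at 7 dpi vehicle, 2 at 28 dpi vehicle, 1 at 7 dpi PLX5622 and none in the other libraries. The mitosis sum stood at 157, 165 and 135 CPM in the vehicle libraries and at 116, 158 and 78.4 CPM in the PLX5622 libraries. It was highest at 7 dpi and lowest at 28 dpi in both diets. The share of cells with at least 3 mitosis UMIs was 13.2, 10.4 and 2.18% with vehicle and 10.6, 23.1 and 2.38% with PLX5622. The 53 cells with at least 3 mitosis UMIs had a median of 11714 UMIs, against 2359.5 in the others. Their Foxj1, the master factor of motile cilia, stood at 709 against 589 CPM. Replication genes gave 60.1% of the combined replication and mitosis UMIs in ependymal-like cells, against 24.9% in cluster 8.

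MDM-like cells had low levels of all mitosis genes but were many. Mki67 had 4 UMIs in sham vehicle (2.82 CPM; 185 cells), 124 at 7 dpi vehicle (6.24 CPM; 3023 cells) and 21 at 28 dpi vehicle (1.51 CPM; 3313 cells). With PLX5622 it had 1, 2 and 3 UMIs. In vehicle at 28 dpi relative to 7 dpi, 5 of 30 genes were at least 2-fold lower (Mki67, Birc5, Ccnb2, Cdca3 and 2810417H13Rik), against 4.97% of all genes, and 0 higher, against 4.95%. Mki67 had a log2 ratio of -2.04 (-2.78 to -1.37), Ccnb2, a B-type cyclin, -1.97 (-2.95 to -1.11) and 2810417H13Rik -1.96 (-2.89 to -1.13). The summed mitosis genes stood at 59.0 against 41.9 CPM at 7 and 28 dpi (log2 ratio of 28 over 7 dpi -0.49, -0.64 to -0.35) and the replication genes at 161 against 162 CPM. Pcna was at 57.5 CPM at 7 dpi and 70.2 at 28 dpi. Median depth of these cells was 5777 UMIs at 7 dpi and 3875 at 28 dpi.

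At 7 dpi relative to sham in vehicle, 5 of 26 genes of MDM-like cells were at least 2-fold higher (Mki67, Top2a, Ccnb2, Tpx2 and Tk1), against 5.35% of all genes, and 1 lower (Cenpe), against 14.2%, but the interval of each of these 6 included 0. With PLX5622 relative to vehicle at 7 dpi, 13 of 26 genes were at least 2-fold lower, against 4.13% of all genes, and 1 higher (Tpx2), against 3.53%. Mki67 had 2 against 124 UMIs (-2.45, -5.51 to -0.56), and Gins2 4 against 147 (-1.69, -3.59 to -0.30). Of the 13 lower genes, 10 rested on 3 or fewer UMIs in the 100 PLX5622 cells, and the interval of Top2a, with 3 against 87 UMIs, ran from -3.65 to 0.25. Tpx2, with 10 against 34 UMIs, had a log2 ratio of 1.74 (0.56 to 2.79). The mitosis sum was 43.5 CPM with PLX5622 and 59.0 CPM with vehicle (log2 ratio -0.44, -0.79 to -0.10), and the replication sums were 160.3 and 161 CPM. By cell the order was the other way, with at least 3 mitosis UMIs in 10 of 100 cells with PLX5622 (4.90 to 17.6%) and 2.28% of 3023 with vehicle (1.78 to 2.88%). The PLX5622 cells were deeper, at a median of 15945 against 5777 UMIs, and the part of depth in these shares was not tested.

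Taken over whole libraries, the mitosis genes summed to 474 CPM in sham vehicle, 453 at 7 dpi and 327 at 28 dpi, and with PLX5622 to 332, 301 and 307 CPM. Mki67 stood at 43.4, 46.5 and 31.8 CPM in the vehicle libraries and at 49.5, 20.0 and 26.8 CPM in the PLX5622 libraries. Top2a stood at 52.1, 61.0 and 41.6 CPM and at 32.2, 29.6 and 42.7 CPM. Both were lowest with PLX5622 at 7 dpi. Pcna, which many cells express, stood at 45.9, 61.6 and 64.8 CPM and at 53.7, 69.8 and 63.0 CPM, lowest in the sham library of each diet. H2afz stood at 590.3, 643 and 619 CPM and at 401, 620.6 and 513 CPM. Where the mitosis UMIs sat differed. Cluster 8 gave 60.8% of them in sham vehicle, 79.3% at 7 dpi and 78.0% at 28 dpi, and 73.4%, 55.1% and 36.8% in the PLX5622 libraries. Erythroid-like cells gave 90.6 CPM of the sham vehicle library and 3.67 CPM at 7 dpi vehicle, while oligodendrocyte lineage-like cells gave 49.1 and 29.1 CPM and MDM-like cells 8.49 and 32.8 CPM. Outside cluster 8 and the erythroid-like and oligodendrocyte lineage-like cells, the sums were 49.9, 66.8 and 52.4 CPM in the vehicle libraries and 47.8, 68.8 and 48.8 CPM in the PLX5622 libraries, highest at 7 dpi in both diets.

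**Figure D5:**
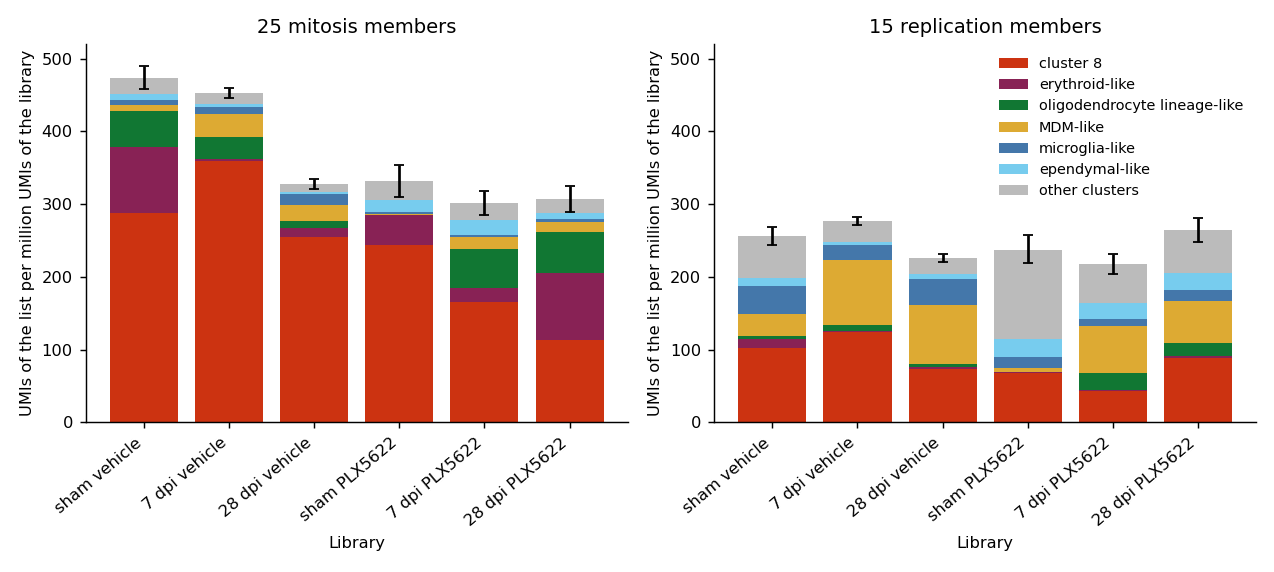
Summed CPM of the mitosis genes (left) and replication genes (right) of each library, stacked by the cluster the UMIs came from, with the Poisson 95% interval of the total. Cluster 8 gives 359 of the 453 CPM of mitosis genes at 7 dpi vehicle and 288 of 474 CPM in sham vehicle.

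Relative to sham in vehicle, the 7 dpi library had 1 of 42 genes at least 2-fold higher, against 2.48% of all genes, and 2 at least 2-fold lower, against 36.3%. The higher one was Ccnb1, the cyclin of mitotic entry, at 10.8 against 5.01 CPM (log2 ratio 1.11, 0.62 to 1.65). The lower ones were Ube2c (30.7 against 83.6 CPM; -1.44, -1.59 to -1.30) and Nusap1 (17.1 against 37.4 CPM; -1.13). The median log2 ratio was 0.15 over the 42 genes, of which 28 were above 0, and -0.71 over all genes, so most of the 42 stood above the general shift of that library. The mitosis sum had a log2 ratio of -0.07 (-0.12 to -0.01) by CPM, which turned to 0.55 with TMM and 0.63 with DESeq2 scaling.

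At 28 dpi relative to sham, 0 of 42 genes were 2-fold higher (1.79% of all genes) and 3 were lower (30.3%), namely Ube2c (24.5 against 83.6 CPM; -1.77), Nusap1 (361 against 269 UMIs; -1.53) and Rrm2, the small subunit of ribonucleotide reductase (8.07 against 17.7 CPM; -1.13). The medians were -0.33 over the 42 genes and -0.63 over all. The sum of the mitosis genes had a log2 ratio of -0.53 by CPM and 0.04 and 0.09 with TMM and DESeq2 scaling. Between the injured vehicle libraries, 28 dpi stood below 7 dpi for 41 of 42 genes, with a median of -0.46 against 0.09 over all genes, although 0 passed 2-fold in either direction (4.75% of all genes higher and 2.83% lower). The exception was Pcna, at 64.8 against 61.6 CPM (0.07). The lowest ratios were those of 2810417H13Rik (23.7 against 45.6 CPM; -0.94) and Ccnb1 (-0.88).

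PLX5622 was compared with vehicle at each time. In sham, 0 of 41 genes were 2-fold higher (17.9% of all genes) and 3 lower (7.33%): Cdk1, the mitotic kinase (6.91 against 17.8 CPM; -1.37, -2.17 to -0.65), 2810417H13Rik (13.4 against 33.5 CPM; -1.32) and Bub1b (4 against 34 UMIs; -1.62, -3.58 to -0.14). At 7 dpi, 0 of 42 were higher (26.8% of all genes) and 9 were lower (1.73%): Mki67, Top2a, Birc5, Hmmr, Bub1, Tk1, 2810417H13Rik, Ccne1 and Ccne2. Mki67 stood at 20.0 against 46.5 CPM (-1.22, -1.55 to -0.91), Top2a at 29.6 against 61.0 CPM (-1.04, -1.31 to -0.78) and Birc5 at 15.6 against 32.8 CPM (-1.07, -1.45 to -0.72). The median log2 ratio was -0.54 over the 42 genes and 0.41 over all genes, and 6 of 42 were above 0, Kif11 highest at 0.28. The mitosis sum had a log2 ratio of -0.59 (-0.67 to -0.51), but when each cell was weighted alike it was 0.49, and outside cluster 8 it was 0.48 (0.35 to 0.61). Outside cluster 8 and the erythroid-like and oligodendrocyte lineage-like cells, the sums were 68.8 CPM with PLX5622 and 66.8 CPM with vehicle.

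At 28 dpi the picture differed again. Higher with PLX5622 were 2 of 42 genes (24.8% of all genes), Ccne2 (7.84 against 3.28 CPM; 1.26, 0.60 to 1.88) and Mcm7, a helicase subunit (27.6 against 12.96 CPM; 1.09, 0.76 to 1.41), and lower was 1 (1.78%), Gins2 (12 against 209 UMIs; -1.21). The medians were 0.02 over the 42 genes and 0.36 over all. Without cluster 8, 18 of 40 genes were higher (25.4% of all genes) and 2 lower, Ccne1 and Gins2 (1.79%), and the mitosis sum stood at 199 against 75.4 CPM (log2 ratio 1.40, 1.28 to 1.53). Nusap1 led, with 64 against 61 UMIs, or 17.8 against 2.30 CPM (2.95, 2.42 to 3.48). Of the 717 mitosis UMIs outside cluster 8 in that PLX5622 library, 342 (47.7%) came from 5 erythroid-like cells. Without the erythroid-like and oligodendrocyte lineage-like cells the sums were 48.8 against 52.4 CPM.

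The PLX5622 libraries were also compared with their own sham, of 492 cells. At 7 dpi, 1 of 36 genes was higher, Cdk1 (16.1 against 6.91 CPM; 4.44% of all genes), and 1 lower, Mki67 (20.0 against 49.5 CPM; 20.1%). In that sham library, 119 of the 129 Mki67 UMIs came from the 7 cells of cluster 8. At 28 dpi, 2 of 37 genes were higher, 2810417H13Rik (33.0 against 13.4 CPM) and Ccne2 (7.84 against 3.07 CPM; 5.5% of all genes), and 1 lower, Kif23, a kinesin of cytokinesis (16 against 27 UMIs; 22.7%).

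Other genes of the cell cycle were read from lists that hold none of the 42. Cluster 8 stood at least 2-fold above the rest for 33 of 34 other mitosis genes (median log2 ratio 5.07) and for 21 of 21 other replication genes (2.99), against 6.15% of all genes higher and 25.9% lower. The 42 genes themselves were all at least 2-fold higher there. Cluster 8 was defined from the same counts, so the values of these lists, like those of the 42 genes, describe it and test nothing. Of the E2F and pocket protein genes, which regulate entry into DNA synthesis, 7 of 10 were at least 2-fold higher (2.04). Hmgb2, a chromatin protein, stood at 1347 against 88.2 CPM and Lig1, the replicative DNA ligase, at 167 against 19.9 CPM. The D cyclins and their kinases gave 2 of 6 higher and 1 lower (median 0.75), and the kinase inhibitors 3 of 7 higher and 2 lower (0.26). Ccnd1, a D cyclin of cycle entry, stood at 101 CPM in cluster 8 and 98.1 in the rest, and was highest in oligodendrocyte lineage-like cells at 1799 CPM. Ccnd2 was highest in ependymal-like cells (530.1 CPM) and Cdkn1a, the p21 inhibitor, in endothelial-like cells (570 CPM against 120 in cluster 8). At 7 dpi, PLX5622 over vehicle, all 6 D cyclin and kinase genes and all 7 inhibitors had log2 ratios above 0 (medians 0.59 and 0.70), whereas the other mitosis genes had a median of -0.43 with 1 higher and 6 lower of 34 past 2-fold. Over all genes the median was 0.41, with 26.8% higher and 1.73% lower.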

How the data were processed

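Spinal cords were dissociated (1 cm around the lesion, with myelin and dead cells removed) and sequenced on the 10x Chromium 3′ platform. The authors aligned reads with Cell Ranger (3.0.2 per the file headers; builds GRCm38 and mm10 per the labels), filtered, integrated and clustered the cells with Seurat, and deposited raw UMI counts per gene and cell with a cluster number for each cell. The deposited matrices held 21270 barcodes, of which 254, each with 199 or fewer genes, are not in the count table of 21016 cells. The stated filter removed cells above 3000 genes, yet the table holds 716 such cells, so they were kept, as were marked doublets. Of the series' other files, 14 bulk RNA-seq samples were not analysed here.

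The 42 genes and all lists were chosen with earlier results of these data known. Sums of counts were given as CPM with exact Poisson intervals, shares with Clopper-Pearson intervals, and log2 ratios with exact conditional binomial intervals. A gene at 0 was set to a floor of 3 counts. A gene was called when 2 libraries differed at least 2-fold and held 30 or more UMIs together, and each count of called genes was read beside the percent of all genes called. Each library is 1 pool of mice, so no p-value was computed. Cells were also thinned to 1000 UMIs. Doublets were marked with the Scrublet scores of scanpy 1.11.5 at 0.8% per 1000 barcodes (1256 cells). Genes named with values were those with the 10 highest UMI totals, the 5 of highest and the 5 of lowest ratio in a comparison, and those that passed 2-fold; further members were named to describe clusters after their values were seen. Promoter sequences are those of RefSeq (GRCm38.p6). TMM (edgeR 4.0.16) and size factors (DESeq2 1.42.0) were used for scaling only, in R 4.3.3. Python 3.11.15, numpy 2.4.6, scipy 1.17.1 and pandas 2.3.3 were used, and the interval and ratio steps were tested on simulated data. Alternatives were the UMI minimum, the 2 broad genes left out, scaling, depth, equal weight per cell, gene number filters and doublets.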

Additional observations from a re-analysis of the deposited data

Results flagged for a closer look

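The following sums had log2 ratios of opposite sign after injury in the 2 diets, each relative to the sham library of its own diet, and the difference between diets was not tested, since each condition is 1 library. Outside cluster 8, the mitosis genes had log2 ratios of -0.95 with vehicle and 0.64 with PLX5622 at 7 dpi, and of -1.37 and 1.14 at 28 dpi. Without the erythroid-like and oligodendrocyte lineage-like cells as well, the sums were 49.9, 66.8 and 52.4 CPM with vehicle and 47.8, 68.8 and 48.8 CPM with PLX5622 in sham and at 7 and 28 dpi, so the opposition rests on those cells. In erythroid-like cells at 28 dpi they had -0.24 with vehicle and 2.90 with PLX5622, the latter from 5 cells. In oligodendrocyte lineage-like cells, where the 4 cells of the PLX5622 sham held 0 mitosis UMIs and the floor of 3 counts stands for the 0, the values were -0.52 with vehicle and 3.04 with PLX5622 at 7 dpi (lower counting limit 2.73), and -0.70 and 3.15 at 28 dpi (lower limit 2.84). The vehicle sham sum rests on 2 of 22 cells, and by the share of cells with at least 3 mitosis UMIs vehicle was higher after injury too, at 9.09% in sham, 26.2% at 7 dpi and 23.6% at 28 dpi. H2afz and Stmn1 together had -0.41 with vehicle and 2.74 (1.50 to 4.37) with PLX5622 in those cells at 7 dpi. At 28 dpi they had -0.89 and 1.36 (0.09 to 3.01), and the PLX5622 sham held only 5 of their UMIs. The same pair had -0.40 and 0.69 in T and NK cell-like cells at 7 dpi, and -0.36 and 0.32 in cluster 8 at 7 dpi. The replication genes of all cells had -0.18 with vehicle and 0.15 with PLX5622 at 28 dpi, of which the vehicle value turned to 0.40 with TMM and 0.44 with DESeq2 scaling, and both turned at 1000 UMIs per cell, to 0.013 with vehicle and -0.19 with PLX5622.

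Signal of the 42 genes was also found in the 254 barcodes that are not in the count table. They held 153932 UMIs in all, of which 612 were of the 42 genes, and 582 of those were of Ube2c and Nusap1. These 582 lay in the sham vehicle (320), sham PLX5622 (205) and 7 dpi PLX5622 (57) libraries. Hemoglobin genes took 26.8%, 35.6% and 30.4% of the UMIs of these barcodes. Of the barcodes, 84 held at least 3 mitosis UMIs.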

How the results depend on the processing

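No paired analysis was possible because each condition is 1 library and no test was made, and no replicate could be left out. Values follow the order sham, 7 dpi and 28 dpi vehicle, then sham, 7 dpi and 28 dpi PLX5622. The percent of cells with at least 3 UMIs of the 42 genes (36.0, 50.9, 32.7, 38.4, 62.7 and 36.0) was 21.6, 29.2, 15.0, 23.4, 47.8 and 21.1 at 5 UMIs, 12.98, 13.9, 6.96, 18.3, 31.2 and 10.5 without Stmn1 and H2afz, and 6.50, 10.6, 8.06, 6.84, 8.86 and 8.19 at 1000 UMIs per cell. With at least 500 genes per cell it was 39.6, 54.1 and 36.9 in vehicle and 67.8 and 39.5 in injured PLX5622 libraries. Without marked doublets it was 49.4 and 31.5 in injured vehicle libraries. With at most 3000 genes, chosen after seeing the data, it was 31.9, 49.0, 28.0, 51.2 and 32.4, leaving out 28 dpi vehicle.

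The log2 ratio of the 42-gene sum is given for 7 dpi over sham, 28 dpi over sham and 28 over 7 dpi in vehicle, PLX5622 over vehicle in sham, at 7 and at 28 dpi, and 7 and 28 dpi over sham in PLX5622. It was 0.08, -0.16, -0.24, -0.39, -0.26, -0.13, 0.21 and 0.10 by CPM. TMM gave 0.70, 0.42, -0.28, -0.70, -0.74, -0.53, 0.66 and 0.58, and DESeq2 scaling 0.78, 0.46, -0.32, -0.67, -0.79, -0.55, 0.66 and 0.58. Equal weight per cell gave 0.13, -0.060, -0.19, -0.25, 0.15, -0.00072, 0.54 and 0.19. Without Stmn1 and H2afz the moved values were 0.00059, -0.40, -0.40, -0.49, 0.044, -0.13 and 0.0041, all but the sham comparison. At 1000 UMIs they were 0.37, 0.18, -0.19, 0.054, -0.13 and 0.028 for the first 6. With at least 500 genes they were 0.12 and -0.11 for injury over sham in vehicle, without doublets -0.19 for PLX5622 at 28 dpi, and with at most 3000 genes 0.46, 0.36, -0.10, -0.32, -0.40, 0.39 and 0.58, all but PLX5622 at 28 dpi. Thus 28 dpi over sham in vehicle turned positive with TMM, DESeq2 scaling, 1000 UMIs and at most 3000 genes. The cause was not tested.

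In PLX5622 at 7 dpi over sham, the 1 higher gene became 0 with a minimum of 100 UMIs and 2 with no minimum, and the 1 lower became 2 with no minimum. At 28 dpi over sham the 2 higher became 1, and the 1 lower 0, with a minimum of 100. The percent of cells with mitosis UMIs outside cluster 8, 40.9 at 3 UMIs, was 57.2 at 2, 24.9 at 5 and 29.5 with 3 distinct genes, the last chosen after seeing the data. The other 52 alternatives to these values moved them by less than their counting error, or a count by under 1.5 times. Of the alternatives to the mitosis sums, the replication sums and the per-library shares outside cluster 8, 72 moved a value by more than that and 52 did not. Few cells limit the PLX5622 libraries, with 7 to 16 in cluster 8.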

Other observations

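The 254 barcodes outside the count table came mostly from the sham libraries, with 121 in sham vehicle and 102 in sham PLX5622, and from 7 dpi PLX5622, with 29. Erythroid-like cells in the count table that held at least 3 mitosis UMIs had Alas2, the first enzyme of erythroid heme synthesis, at 15188 CPM, against 5142 CPM in the other erythroid-like cells. In oligodendrocyte lineage-like cells the neural progenitor gene Sox11 stood at 355 CPM in cells with at least 3 mitosis UMIs and at 152 CPM in the others.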
